A study of Mus musculus with 15 samples.

Results

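Intronic crosslink sites of tristetraprolin (TTP) and of its phosphorylation-site mutant TTP-AA were examined in 6 pooled lists of individual-nucleotide resolution crosslinking and immunoprecipitation (iCLIP). A site was taken as intronic when it lay on the sense strand inside a gene span of GENCODE M21 (mm10) but outside every 3′UTR, CDS and 5′UTR of protein-coding transcripts and every exon of a non-coding gene on that strand. This rule used position alone and retained 21538 of the 162273 sites of the 6 lists, at 16399 of 123142 distinct positions. The value of a site was its number of unique cDNAs, which stand for separate crosslinked RNA molecules, and the intronic sites together held 49193 of 388091 cDNAs.

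The cells were immortalised bone marrow-derived macrophages of C57BL/6 mice that lack TTP, made by transduction with hcmyc and hRasG12V, and all of them carried a tetracycline-inducible vector and had received doxycycline for 6 h. They expressed either GFP-TTP or GFP-TTP-AA, whose serines at the MK2 phosphorylation sites were changed to alanine, and they were lysed at 0 h, 1 h or 4 h of lipopolysaccharide (LPS). Of the 15 samples, the GFP-TTP groups held 2, 4 and 2 at these times and the GFP-TTP-AA groups 2, 3 and 2, and each list is the sum over a group, so no spread between replicates could be set against any difference. All intervals given here are 95% intervals that cover counting error only. Those over neighbouring sites are too narrow, since such sites are not independent. Among 10 macrophage markers, 8 had a cDNA in some list, with Lyz2 highest at 108 (TTP) and 177 (TTP-AA) at 1 h, whereas 1 of 11 markers of other cell types had one, with 2 cDNAs at Cdh1. The part of cell composition in the results was not tested.

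TTP is a zinc finger protein that binds AU-rich elements, mostly in the 3′UTRs of cytokine mRNAs, and recruits the CCR4-NOT deadenylase complex, which shortens the poly(A) tail. TTP moves between nucleus and cytoplasm, so pre-mRNA introns are within its reach, but mature target mRNAs hold the elements for which it is best known. MK2, active soon after LPS, phosphorylates TTP and thereby limits its action on mRNA. Introns are removed from pre-mRNA by splicing, but some transcripts keep an intron, and GENCODE annotates such forms as separate retained-intron transcripts.

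Sequences near intronic sites are shown first, in sets chosen for holding or lacking a short AU-rich sequence, so that difference between the sets follows from the choice. Sequence could be read only where an annotated transcript or a RefSeq promoter window (GRCm38) covers the position. This held for between 3.39% and 9.83% of the intronic sites of a list. The first set shows 1 site in each of 6 genes in which a site held 2 cDNAs over both 1 h lists and the heptamer TATTTAT, the core of the AU-rich element, within 20 nt. No such readable site held more than 2 cDNAs. Below them are 4 genes with the most cDNAs at such sites among the others, chosen after their values were seen. Each sequence runs 5′ to 3′ in DNA letters for 30 nt, with the crosslinked nucleotide as the 15th base, and capitals mark TATTTAT, with overlapping copies run together.
Prpf39 (chr12:65043165-65043194, plus strand): aagctggTATTTATtctttctctgagaaaa
Twf1 (chr15:94581053-94581082, minus strand): gttatttgaacttacagttttTATTTATtc
Polr1b (chr2:129118433-129118462, plus strand): atttgtttgtttgttTATTTATttaatgtg
Tial1 (chr7:128447011-128447040, minus strand): ttgtagattttttttctcatttcTATTTAT
Slc44a2 (chr9:21345077-21345106, plus strand): tatgttatttTATTTATatcttaaatcaat
Ppp4r2 (chr6:100863252-100863281, plus strand): tTATTTATTTATTTATTTATTTATTTATtt
Clec4e (chr6:123288115-123288144, minus strand): cactatccatTATTTATtctcagcaccttg
Sass6 (chr3:116630680-116630709, plus strand): ccctccccttacTATTTATaaacctgtttc
Plekho2 (chr9:65553815-65553844, minus strand): agccattTATTTATTTATTTATtattctgt
Idh3b (chr2:130283188-130283217, minus strand): atttttaaaaattTATTTATTTATTTATtt
All 10 sites shown were found in the TTP-AA list at 1 h and none of them in the TTP list at that time. Some of the sequences held a lone copy of the heptamer, as in Clec4e, the gene of the macrophage receptor Mincle, and in Prpf39, a splicing factor gene. In others it was part of a repeat, with 6 overlapping copies in Ppp4r2 and 3 each in Plekho2 and Idh3b. Except for the Twf1 site, all of them lay in an exon of another transcript of the host gene, annotated as retained intron, processed transcript or subject to nonsense-mediated decay. So did 534 of all 611 readable intronic sites of the TTP-AA list at 1 h, as sequence was read mainly from annotated transcripts. Whether the sequences shown occur once in the genome was not tested.

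The second set shows the readable sites with most cDNAs over both 1 h lists among those without the heptamer, 1 per gene. Here the capital marks the crosslinked base.
Gm14321 (chr2:167778064-167778093, plus strand): agccctggagaggcCgtcccacctggggta
Gm26636 (chr6:87913902-87913931, minus strand): ccgcccccgacgtgAcgtcgcgccgtcggg
Pcsk2 (chr2:143547970-143547999, plus strand): aagcgcaggtctgcGggtggcgcgcgggcg
Arpc2 (chr1:74236449-74236478, plus strand): aatggcgccgcgggGccgcgcgtgcgggcg
Eef1a1 (chr9:78479762-78479791, minus strand): gactgcctgtgtttTagatgccttggttca
At 1 h the Gm14321 site held 12 cDNAs in the TTP list but 64 in that of TTP-AA, in sequence of 70% G and C. The sites in Gm26636, Pcsk2 and Arpc2 were found only at 1 h, with 34, 21 and 23 cDNAs for TTP and 14, 13 and 8 for TTP-AA, and their sequences were rich in G and C, at 83.3%, 80.0% and 86.7%. In Eef1a1, which encodes a translation elongation factor, the site held 5 and 19 cDNAs, in sequence of 46.7% G and C. The sites with most cDNAs of all, in Cmss1, Cdk8, Pde1c and Xlr5a, are named without sequence.

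The first comparison asked how much of the RNA crosslinked to each protein was intronic. At 0 h, 5712 of 33587 cDNAs of the TTP list were intronic (17.0%, Wilson interval 16.6 to 17.4%), as were 4982 of 32617 of the TTP-AA list (15.3%, 14.9 to 15.7%). At 1 h, the TTP list held 15393 of 99263 (15.5%, 15.3 to 15.7%) and the TTP-AA list 12845 of 174397 (7.37%, 7.24 to 7.49%). At 4 h, the values were 5712 of 29060 for TTP (19.7%, 19.2 to 20.1%) and 4549 of 19167 for TTP-AA (23.7%, 23.1 to 24.3%). The TTP-AA list at 1 h thus stood apart with the smallest intronic share of the 6 lists.

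The difference, TTP-AA minus TTP, was −1.73 percentage points at 0 h (Newcombe interval −2.29 to −1.17) and −8.14 at 1 h (−8.40 to −7.89). It was positive only at 4 h, at 4.08 points (3.32 to 4.84). When the cDNAs in 3′UTRs were left out of both denominators, an alternative chosen after seeing the data, TTP had an intronic share of 17.2% at 1 h against 15.9% in TTP-AA, and the difference shrank to −1.28 points (−1.63 to −0.93). Without the clusters found in all 6 lists, likewise an added alternative, it was −2.34 points. The number of intronic sites was higher for TTP-AA at 1 h, with 6217 against 5085, and the cDNAs at them fewer. Mean cDNAs per intronic site at 1 h were 3.03 for TTP and 2.07 for TTP-AA, whereas 3′UTR sites held 1.41 and 1.53.

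The direction at 4 h depended on how sites were counted. With each site counted once, the difference at 4 h was −0.90 points (−2.16 to 0.36), and without the cDNAs at a locus on chromosome 17 (39843013 to 39848788, genes Gm26917 and Gm42418) it was −1.62. RefSeq lists Gm42418 as a synonym of Rn18s-rs5, a ribosomal RNA-related pseudogene. At 0 h this locus held 14.7% of all TTP cDNAs and 11.2% of those for TTP-AA. At 1 h it held 28.5% and 10.4%, and at 4 h 32.0% and 13.0%. Beyond leaving its cDNAs out, its part in the intronic values was not tested.

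**Figure D1:**
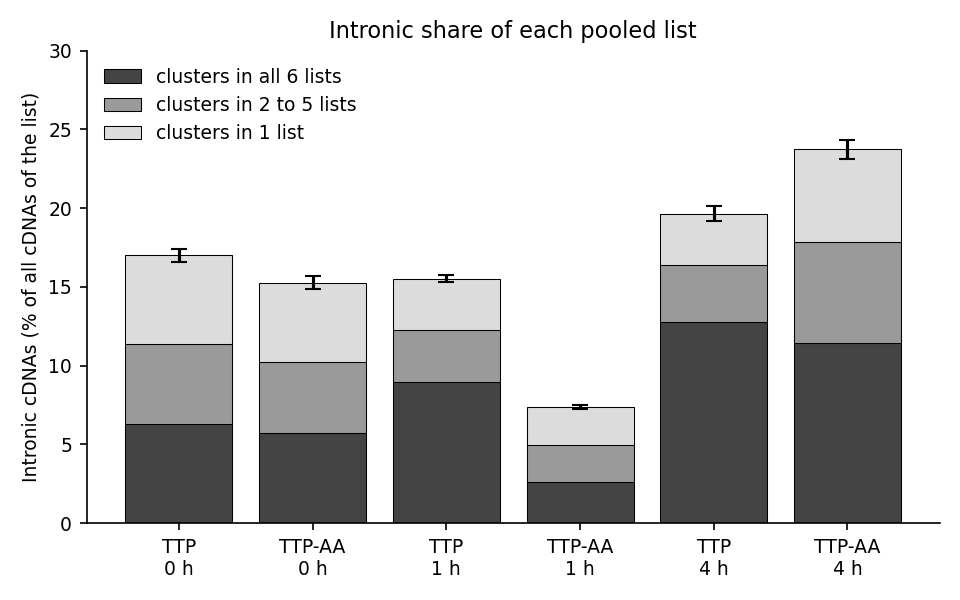
Intronic cDNAs as a percentage of all cDNAs of each pooled list (bars, with the Wilson 95% interval of the total), split by whether their cluster had sites in all 6 lists, in 2 to 5 lists or in 1 list. The TTP-AA list at 1 h is lowest at 7.37%, and clusters in all 6 lists make up 12.8% of the TTP list at 4 h but 2.63% of the TTP-AA list at 1 h.

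Relative to their length, introns were crosslinked rarely. The introns spanned 1164489292 nt and held between 63.2 (TTP-AA, 1 h) and 204 (TTP-AA, 4 h) cDNAs per 1000000 cDNAs of the list and per megabase. The 3′UTRs held between 941 (TTP, 4 h) and 16186 (TTP-AA, 1 h) on the same scale. The share of cDNAs hosted by protein-coding genes was between 86.7% and 90.1% per list, and that hosted by lincRNA genes between 6.08% and 10.2%.

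Intronic crosslinking fell into a small set of strong clusters and a large set of weak ones. Sites 15 nt or less apart were merged over the 6 lists, which gave 5480 clusters. Of these, 4612 had sites in a single list and held 26.5% of the intronic cDNAs, whereas 54 clusters in 44 genes had sites in all 6 lists and held 23360 cDNAs, or 47.5%. Clusters in all 6 lists had a median width of 29.5 nt and those in a single list of 3 nt. Since sites were merged over the 6 lists, clusters with sites in more lists can be wider and hold more cDNAs for that reason alone. The totals of the shared clusters ran from 24 cDNAs (Ston2) to 3898 (Cdk8), so not all of them were strong. At 1 h, sites of the shared clusters held a mean of 7.61 cDNAs for TTP and 4.95 for TTP-AA, against 1.16 and 1.17 at sites of the single-list clusters.

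The intron of Cdk8, the gene of a kinase of the Mediator complex (ENSMUSG00000029635.15, plus strand), held the most intronic cDNAs of any gene. Nearly all of its cDNAs, 1129 of the 1135 for TTP-AA at 1 h, lay in a pair of blocks on chromosome 5, at 146260990 to 146261094 and at 146261111 to 146261340, which began 1003 nt after the nearest exon. Before LPS Cdk8 held 290 intronic TTP cDNAs against 243 for TTP-AA. At 1 h the counts were 2527 against 1135, and at 4 h 1026 against 197, in lists of different size. Per 1000000 cDNAs of the list, Cdk8 had 8634, 25458 and 35306 for TTP over the times but 7450, 6508 and 10278 for TTP-AA. Per cDNA of the list, the level in TTP-AA was 0.863 of that in TTP at 0 h (exact interval 0.725 to 1.03). It was 0.256 at 1 h (0.238 to 0.274), and 4 h gave 0.291 (0.249 to 0.339). Scaled to the intronic cDNAs of each list, the 1 h ratio was 0.538. Cdk8 exons held 2 cDNAs in all, in the 5′UTR in the TTP list at 1 h.

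Cmss1 (ENSMUSG00000022748.8, chromosome 16, minus strand), the homologue of a yeast protein of the small ribosomal subunit, had the same order of lists as Cdk8 by share of the list. Over the 3 times TTP had 303, 1797 and 895 intronic cDNAs there, and TTP-AA had 230, 820 and 264. Per 1000000 cDNAs of the list these were 9021, 18103 and 30798 for TTP but 7052, 4702 and 13774 for TTP-AA. The site with most cDNAs of both 1 h lists lay in this gene at position 57391680, with 489 cDNAs for TTP and 291 for TTP-AA, in a cluster 52810 nt from the exon before it. Per cDNA of the list, TTP-AA over TTP was 0.782 at 0 h (0.656 to 0.931) and 0.260 at 1 h (0.239 to 0.282), while 4 h gave 0.447 (0.388 to 0.514). With lists scaled to their intronic cDNAs the 1 h ratio was 0.547, so the direction did not turn for either gene. By share of the list, the chromosome 17 ribosomal RNA locus was likewise highest for TTP at 4 h (32.0%), then for TTP at 1 h (28.5%). It was likewise lowest for TTP-AA at 1 h (10.4%). Whether the introns of Cdk8 and Cmss1 hold sequence that also occurs at that locus or elsewhere in the genome was not tested.

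Camk1d, the gene of a calmodulin-dependent kinase, and the lincRNA gene Gm19951 were the other genes among the 3 with most intronic cDNAs of a list at 1 h. Camk1d held 119, 537 and 167 cDNAs for TTP over the times and 103, 351 and 40 for TTP-AA, with a 1 h ratio of 0.372 (0.324 to 0.426). Gm19951 held 113, 679 and 214 for TTP but 46, 270 and 77 for TTP-AA, with a 1 h ratio of 0.226 (0.196 to 0.261). By share of the list both were highest for TTP at 4 h, with 5747 (Camk1d) and 7364 (Gm19951) per 1000000 cDNAs against 5410 and 6840 at 1 h. Scaled to intronic cDNAs the 1 h ratios were 0.783 and 0.477.

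Pde1c, which encodes a calcium-dependent phosphodiesterase (ENSMUSG00000004347.16), had another pattern. Its intronic cDNAs lay in a single cluster of 12 nt on chromosome 6 (56240582 to 56240593, minus strand), 101194 nt from the exon before it and 58785 nt from the exon after it. TTP had 190, 239 and 65 cDNAs in this cluster at 0 h, 1 h and 4 h, and TTP-AA had 400, 154 and 871. The TTP-AA list at 4 h was the highest by far, with 4.54% of all its cDNAs in these 12 nt against 0.224% of the TTP list. Per cDNA of the list, TTP-AA over TTP was 2.17 at 0 h (1.82 to 2.59) and 0.367 at 1 h (0.298 to 0.451), but 4 h gave 20.3 (15.8 to 26.6).

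The Xlr5a cluster on chromosome X (73168334 to 73168342, minus strand) was likewise narrow and highest for TTP-AA at 4 h. Over the same times it held 89, 35 and 10 cDNAs for TTP but 50, 83 and 149 for TTP-AA. Wwp2, the gene of a ubiquitin ligase, was chosen after its values were seen as a host of a 7 nt cluster near exons, 65 nt after one and 32 nt before the next. Its cluster held 58, 23 and 72 cDNAs for TTP over the times and 96, 34 and 80 for TTP-AA.

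**Figure D2:**
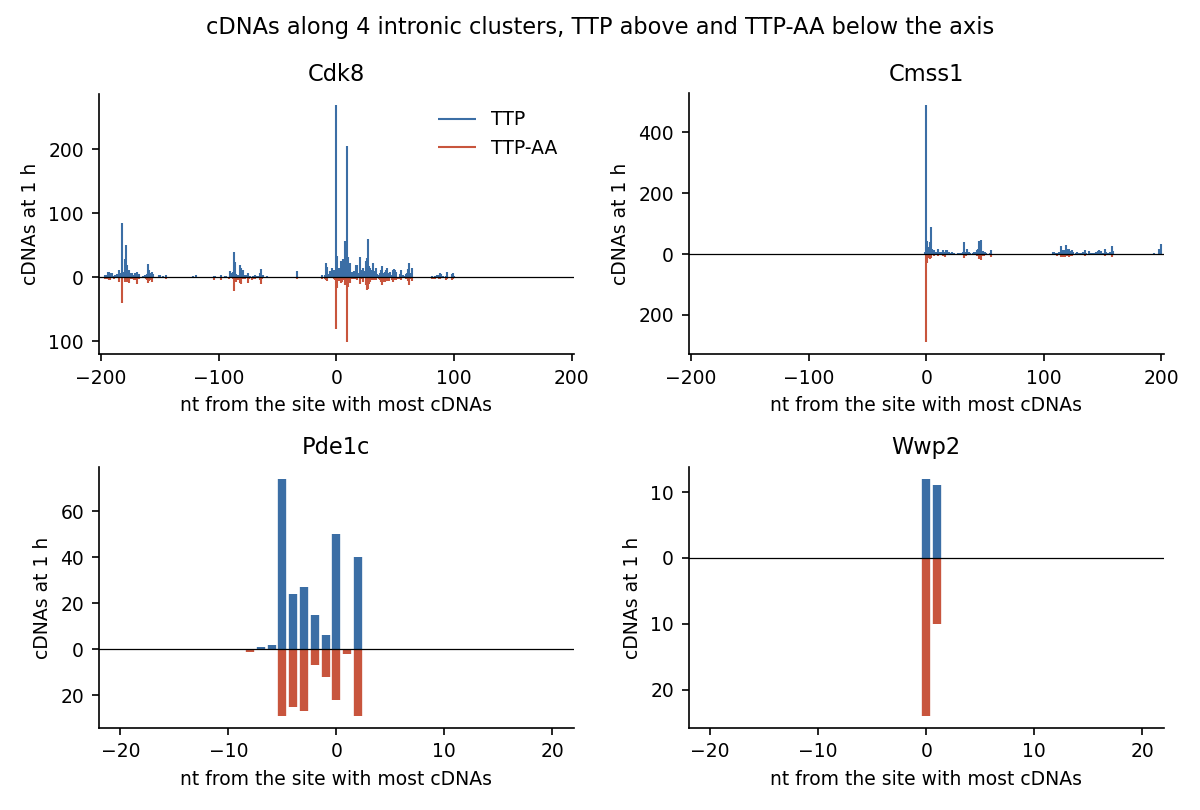
cDNAs per nucleotide at 1 h against the distance in nt from the site with most cDNAs over the 6 lists, TTP above and TTP-AA below the axis, for 4 introns. In Cdk8 and Cmss1 the cDNAs spread over blocks wider than 50 nt, and in Pde1c and Wwp2 they fall within 12 and 7 nt.

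The difference between the proteins varied with width among the 54 clusters shared by all lists. Width was taken from the same sites that are compared, so a cluster with more sites can be wider for that reason alone. Cdk8, Cmss1 and Gm19951 gave 2, 3 and 5 of these clusters, so the clusters are not independent. At 1 h, all 16 clusters wider than 50 nt held a smaller share of the TTP-AA list than of the TTP list, with a median ratio of 0.286. Of the 18 clusters of 15 nt or less, 13 were lower and 5 higher, with a median of 0.430, and of the 20 between these widths 16 were lower and 4 higher. Over all 54, 45 were lower and the median ratio was 0.334. Scaled to intronic cDNAs, which raises each 1 h ratio by a factor of 2.11, 15 of the 16 wide clusters and 9 of the 18 narrow ones were lower in TTP-AA.

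At the other times, too, the shared clusters went both ways. The median ratio of TTP-AA to TTP was 0.766 at 0 h, with 33 of 54 lower in TTP-AA, and 0.742 at 4 h, with 36 lower. Single ratios at 4 h ran from 0.0778 to 22.6, and scaled to intronic cDNAs the median at 4 h was 0.615, against 0.702 at 1 h. The wide clusters together held 3.04%, 6.06% and 9.02% of the TTP lists over time, and 2.18%, 1.59% and 3.87% of those for TTP-AA. The narrow ones held 1.64%, 0.913% and 1.39% for TTP but 2.28%, 0.374% and 6.18% for TTP-AA. Of the 1184 TTP-AA cDNAs in narrow clusters at 4 h, 871 lay at Pde1c and 149 at Xlr5a. By single clusters, 10 of the 18 narrow ones were lower in TTP-AA at 4 h and 8 higher, with a median ratio of 0.863. Only 9 clusters held a larger share of the TTP-AA list at 1 h, among them those of Tnrc6b (3 cDNAs for TTP, 18 for TTP-AA), Gm2415 (5 and 29), Ryr3 (5 and 25) and Fmc1 (42 and 119).

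**Figure D3:**
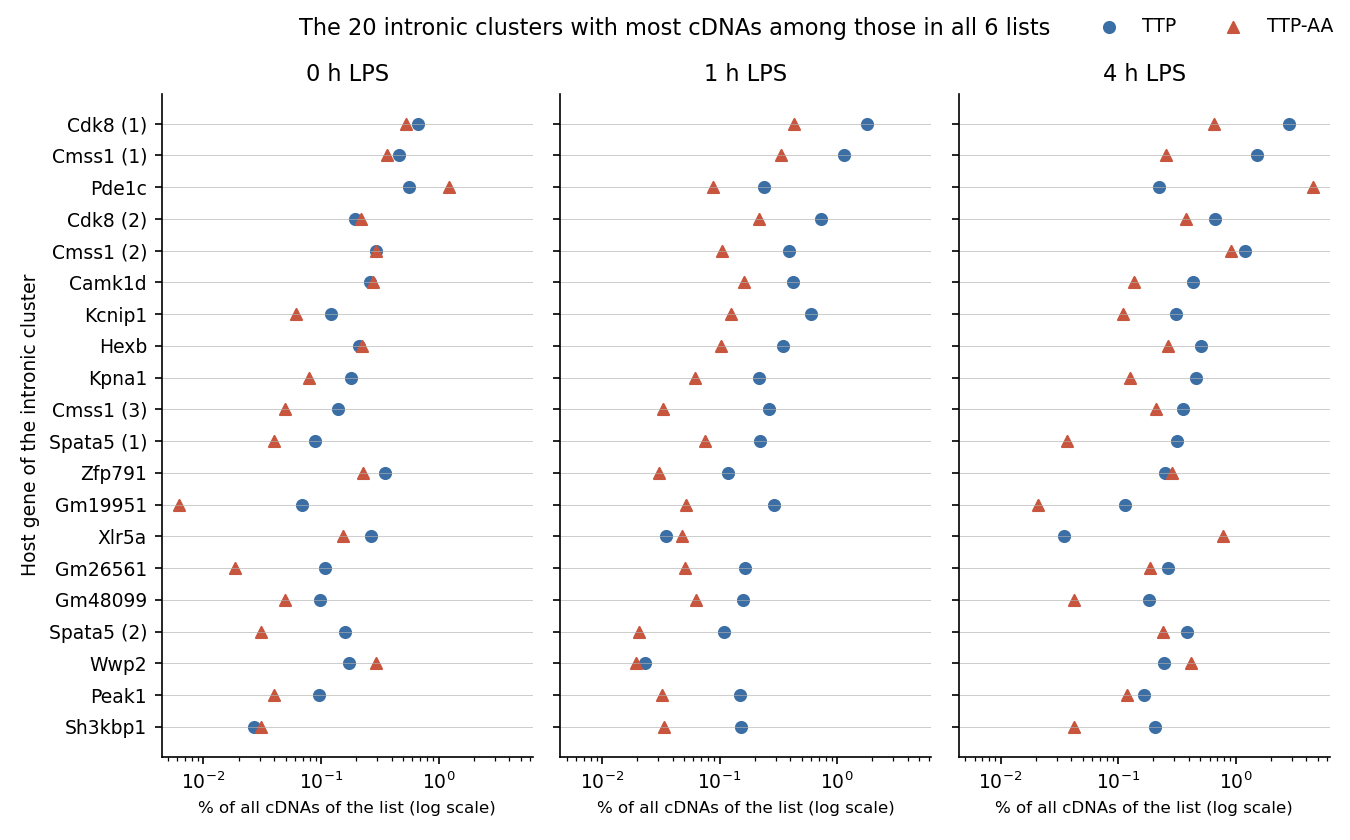
Share of all cDNAs of a list (log scale) in each of the 20 intronic clusters with most cDNAs among those in all 6 lists, at 0 h, 1 h and 4 h of LPS, for TTP (circles) and TTP-AA (triangles). At 1 h the TTP value is the higher one except at Xlr5a, and at 4 h TTP-AA is far higher at Pde1c and Xlr5a.

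Of the 54 shared clusters, 33 were over 1000 nt from the nearest exon on either side. The share of all intron nucleotides at that distance was not computed, so no preference can be read from this count. Within 100 nt of a small RNA gene lay 2 clusters, and 2 lay in an exon of another transcript. These features cover 0.032% and 1.79% of intron nucleotides. Of their 37 protein-coding hosts, 2 had a 3′UTR site for TTP at 1 h (5.41%, against 5.90% of all protein-coding genes), and for TTP-AA 12 did (32.4% against 20.4%).

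Over all intronic positions, sites lay near exons of the same strand and near small RNA genes more often than intron nucleotides at large. The latter include introns of every annotated gene, with or without a site, and no comparison within host genes was made. Within 100 nt after an exon were 685 of 16399 distinct positions, or 4.18% (3.88 to 4.49%), against 2.02% of all intron nucleotides, and within 100 nt before an exon 3.18% against 2.02%. Near small RNA genes such as snoRNAs were 100 positions, or 0.61% (0.502 to 0.741%), against 0.032%. At 1 h such sites were 61 of 5085 for TTP (1.20%, 0.935 to 1.54%) and 45 of 6217 in the TTP-AA list (0.724%, 0.541 to 0.967%). Neighbouring positions are not independent, so these intervals are too narrow. Opposite an exon of the other strand were 0.768%, against 1.06% of intron nucleotides.

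The proteins differed at 1 h in how often a site lay in an exon of another transcript, mainly a retained intron. Of the intronic nucleotides, 1.79% lay in such an exon. At 1 h, 227 of 5085 TTP sites did (4.46%, 3.93 to 5.07%) and 564 of 6217 TTP-AA sites (9.07%, 8.38 to 9.81%), a difference of 4.61 points (3.69 to 5.52). At 0 h the shares were 3.51% and 4.39%, with a difference of 0.87 points (−0.10 to 1.87), and at 4 h 3.13% and 3.20%, with a difference of 0.07 points (−1.03 to 1.15). Of the 564 TTP-AA sites at 1 h, 427 in 101 genes lay in a retained intron, 88 in a processed transcript and 73 in a transcript subject to nonsense-mediated decay. A site can count in more than 1 of these.

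The genes with such sites were chosen for naming after their values were seen. Tmed7, a transport receptor gene on chromosome 18, held 104 cDNAs in a retained intron, 88 of them in the TTP-AA list at 1 h, 8 in the TTP list at 1 h, 5 for TTP at 0 h, 3 for TTP-AA at 4 h and 0 in the other 2 lists. Lilrb4a, an inhibitory receptor gene of myeloid cells, held 25 cDNAs at as many positions, all in the TTP-AA list at 1 h. In contrast, Ttyh1 held 18, 2 and 14 cDNAs for TTP over the times in a retained intron and 33, 9 and 9 for TTP-AA, and its cluster was one of the 54 shared ones.

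The AU-rich heptamer was searched on the sense strand wholly within 20 nt of each readable site. At 1 h, 8 of 284 TTP sites held it (2.82%, 1.43 to 5.46%) and 98 of 611 TTP-AA sites (16.0%, 13.3 to 19.2%). The difference was 13.2 points (9.45 to 16.6). The sites with the heptamer came from 3 genes for TTP and 28 for TTP-AA. Neighbouring sites are not independent, so the motif intervals here and below are too narrow. With each cluster counted once, the shares were 2.29% and 14.3%. Over all intron positions that could be read, 0.708% held the heptamer, and within the same host genes 0.568% (TTP) and 0.789% (TTP-AA) did. The 3′UTR sites of the same lists held it at 22.0% for TTP and 16.0% for TTP-AA, so the intronic and 3′UTR shares were alike for TTP-AA, whereas for TTP the intronic share lay far below that of 3′UTRs.

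No such difference was seen at 0 h, with 12 of 121 TTP sites (9.92%, 5.76 to 16.5%) and 12 of 130 TTP-AA sites (9.23%, 5.36 to 15.4%), a difference of −0.69 points (−8.36 to 6.79). At 4 h, 5 of 87 TTP sites held the heptamer (5.75%, 2.48 to 12.8%) and 0 of 73 TTP-AA sites, which allows a share of up to 4.11%. The sites with the heptamer came from 5 (TTP) and 6 (TTP-AA) genes at 0 h and from 2 genes for TTP at 4 h. The pentamer ATTTA, which the heptamer contains, was near 5.63% of TTP and 28.5% of TTP-AA sites at 1 h, with a difference of 22.8 points (18.1 to 27.1). TGTGT (9.51% and 11.9%) and TTTTT (28.5% and 32.1%) differed by 2.44 points (−2.17 to 6.47) and 3.56 points (−3.01 to 9.79). At 4 h, TTTTT was near 20.7% of TTP and 4.11% of TTP-AA sites.

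**Figure D4:**
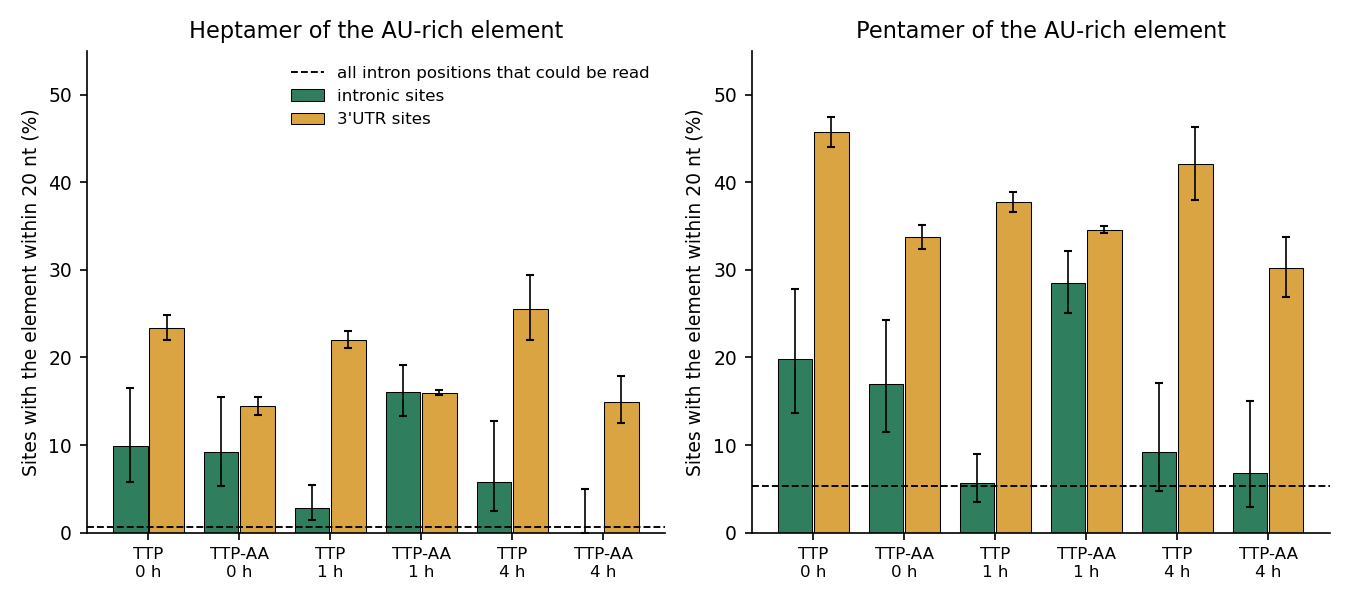
Share of readable sites with the heptamer TATTTAT (left) or the pentamer ATTTA (right) within 20 nt, for intronic and 3′UTR sites of each list, with Wilson 95% intervals. Dashed lines give the share of all readable intron positions. Among intronic sites the TTP-AA list at 1 h is highest, at 16.0% and 28.5%.

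The readable sites are not a sample of all introns. Of those at 1 h, 217 of 284 for TTP and 534 of 611 for TTP-AA lay in an exon of another transcript. Within these, 3.69% and 18.0% held the heptamer. Outside every exon, 0 of 67 TTP sites did, which allows up to 4.48%, and 2 of 77 TTP-AA sites (2.60%, 0.715 to 8.98%), so the comparison at 1 h describes retained introns and similar transcripts.

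The 98 TTP-AA sites at 1 h with the heptamer came from 28 genes, with at most 8 sites a gene. Clec4e and Plekho2 each held 8 cDNAs at such sites, Sass6, which encodes a centriole assembly protein, 7, and Ddx50, an RNA helicase gene, 6, all of them in the TTP-AA list at 1 h and none in the TTP list. Ddx50 held 2 more for TTP-AA at 0 h. Tial1, the gene of an RNA-binding protein that itself recognises U-rich sequence, held 5 for TTP-AA and 0 for TTP at 1 h, and 2 for TTP at 0 h. Idh3b, a mitochondrial dehydrogenase subunit gene, was found in both lists, with 4 cDNAs for TTP and 3 for TTP-AA. These counts are small, and none of these genes could be called on them alone.

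Single genes were compared at 1 h by the share of the list in their introns, with a pseudocount of 0.5 and a minimum of 10 cDNAs over both lists. At least 2-fold higher in TTP-AA were 72 of 341 genes (21.1%) and at least 2-fold lower 140 (41.1%). Over every gene and region with that minimum, 73.6% of 2729 were higher and 10.4% lower. The split turned with the scaling. Relative to the summed intronic cDNAs of each list, 144 genes were higher and 54 lower. At 0 h, 27 of 149 genes were higher (background 24.5%) and 39 lower (background 23.1%), and at 4 h 34 of 97 were higher (background 35.3%) and 34 lower (background 29.4%).

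Of the 72 genes, 43 had no TTP cDNA in their introns, and of the 140 genes 19 had no TTP-AA cDNA. A cluster in all 6 lists was present in 43 of the 341 genes, of which 29 were lower and 5 higher in TTP-AA. The genes with the largest and the smallest ratio are given next, and they are ranked by the same values that define them. A count of 0 was read as up to 3 cDNAs. At 1 h this is 0.00302% of the listed TTP cDNAs or 0.00172% of those for TTP-AA. The lists hold only sites that passed the false-discovery threshold, so 0 means no listed site. Because cDNAs at sites that failed are unknown, folds given as at least, here and below, apply to listed cDNAs only. They also leave out counting error in the other list.

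Acod1, which encodes the enzyme that makes itaconate and is induced by LPS in macrophages, had the largest ratio. Its introns (ENSMUSG00000022126.6, chromosome 14, plus strand) held 92 cDNAs for TTP-AA at 1 h and 0 in each of the other 5 lists. By listed cDNAs, the level at 1 h was at least 17.5-fold higher in TTP-AA, taken against 3 cDNAs. Of the 92 cDNAs, 66 lay at 34 positions between 103052120 and 103052184 and 14 at 12 positions between 103052072 and 103052103, 547 nt or more after the nearest exon. The 3′UTR of Acod1 held 8 TTP cDNAs at 1 h against 44, fewer for TTP-AA than its introns.

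Mdm2, a ubiquitin ligase gene that restrains the tumour suppressor Trp53, held 39 intronic cDNAs for TTP-AA and 0 for TTP at 1 h. By listed cDNAs this was at least 7.40-fold higher. Mdm2 held 4 for TTP at 0 h and 0 in the other 3 lists. The 39 cDNAs were few beside those in its 3′UTR, where TTP-AA held 1674 and TTP 149. Clec4e held 30 intronic cDNAs, all for TTP-AA at 1 h, and 65 in the 3′UTR of that list. St3gal1, a sialyltransferase gene, held 30 for TTP-AA and 0 for TTP at 1 h. At 0 h it held 10 for TTP but 2 for TTP-AA, which had 2 again at 4 h. Ncapg2, a condensin subunit gene, held 29 and 0 at 1 h, and 2 and 5 at 0 h for TTP-AA and TTP.

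At the other end stood Dst, which encodes a cytoskeletal linker protein, with 19 intronic TTP cDNAs at 1 h against 0. By listed cDNAs, Dst was at least 11.1-fold lower. Abr held 15 and 0, Cnot2, a subunit gene of the CCR4-NOT complex, 13 and 0, Tmem267 13 and 0, and the transcription factor gene Cux1 12 and 0. On the same basis these genes were lower by at least 8.78-fold, 7.61-fold, 7.61-fold and 7.03-fold. The 3′UTRs of 3 of them had the opposite direction, with 18 cDNAs for TTP-AA and 0 for TTP in Dst, 59 and 3 in Abr, and 61 and 11 in Cux1. That direction was the common one, since 73.6% of 2729 values over every gene and region were at least 2-fold higher in TTP-AA at 1 h.

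**Figure D5:**
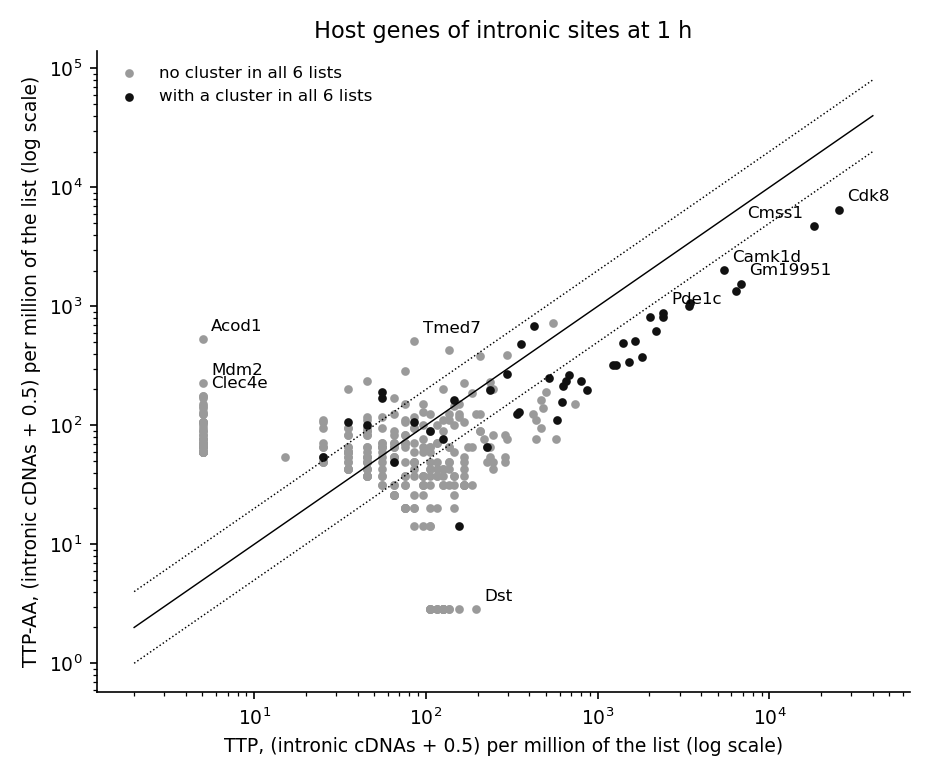
Intronic cDNAs of each gene with at least 10 over both 1 h lists, plus 0.5, per 1000000 cDNAs of the list, TTP-AA against TTP (both axes logarithmic). The solid line marks equality and dotted lines a 2-fold difference. Genes with a cluster in all 6 lists (black) include the highest ones and mostly lie below equality, whereas Acod1, Mdm2 and Clec4e have no TTP cDNA.

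Over all protein-coding genes, 15.7% had an intronic site in some list and 22.0% a 3′UTR site. Of 30 cytokine and chemokine genes, 18 had a 3′UTR site in some list and 2 an intronic one. Ccl2, a monocyte chemokine, held 10 intronic TTP cDNAs at 1 h against 15, a ratio per cDNA of the list of 0.854 (0.359 to 2.13), beside 81 and 913 in its 3′UTR. Il10 held 4 intronic cDNAs, all for TTP at 0 h. Tnf, Ier3, Dusp1 and Tnfaip3 had no intronic site in any list, although their 3′UTRs held 1673, 159, 214 and 664 cDNAs for TTP-AA at 1 h.

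Feedback inhibitors of inflammation gave 3 genes with an intronic site of 26, against 17 with a 3′UTR site. Dusp16, a phosphatase gene of the MAPK pathway, held 21 intronic cDNAs for TTP-AA and 0 for TTP at 1 h. By listed cDNAs this was at least 3.98-fold higher. Dusp16 also held 2 for TTP at 4 h, and none in its 3′UTR in any list. Tnip1, which encodes a partner of the ubiquitin editor A20, held 4 and 8 at 1 h, a ratio of 1.14 (0.305 to 5.17). Nfkbiz held 4 in all. None of the 5 NF-κB subunit genes had an intronic site, and 3 had a 3′UTR site.

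Of 41 splicing factor genes, 15 had an intronic site and 37 a 3′UTR site. At 1 h 4 of them reached the minimum, of which 1 was higher and 2 lower in TTP-AA, where 21.1% and 41.1% of all 341 genes were. Rbm39 held 13 intronic cDNAs for TTP and 5 for TTP-AA, a ratio of 0.219 (0.0611 to 0.654). In contrast, Luc7l2 held 0 and 18, at least 3.42-fold higher by listed cDNAs. Srsf10 held 4 and 3. Among 35 annotated snoRNA host genes, 7 had an intronic site, led by Ncl with 7 cDNAs in all, 5 of them for TTP-AA at 1 h.

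The next comparison asked how many hosts of intronic sites also had a 3′UTR site in the same list. Of 1359 protein-coding genes with an intronic site in the TTP-AA list at 1 h, 604 also had a 3′UTR site (44.4%, 41.8 to 47.1%). In the TTP list at 1 h, 184 of 1186 did (15.5%, 13.6 to 17.7%). The same lists held a 3′UTR site in 20.4% and 5.90% of all protein-coding genes. TTP gave 7.66% at 0 h and 1.84% at 4 h, against 3.36% and 0.579% of all protein-coding genes, while TTP-AA gave 7.78% and 1.08% against 4.08% and 0.902%. The share of hosts was above that of all genes in each list. For TTP-AA at 4 h it rested on 7 of 651 hosts, with an interval (0.522 to 2.20%) that included 0.902%. Between the proteins, hosts and all genes had the same order at 0 h and 1 h but not at 4 h. Among hosts of clusters found in a single list, 510 of 981 (52.0%) had a 3′UTR site in the TTP-AA list at 1 h and 163 of 893 (18.3%) in the TTP list at 1 h.

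The last comparison asked whether both proteins were crosslinked at the same intronic positions. At 1 h, 2091 of 5085 TTP sites had a TTP-AA intronic site within 15 nt (41.1%, 39.8 to 42.5%), and 1905 of 6217 TTP-AA sites had a TTP site (30.6%, 29.5 to 31.8%). The same nucleotide was shared by 25.8% of TTP sites and 21.1% of those for TTP-AA. Among sites with at least 2 cDNAs in both lists, 72.5% and 56.1% had a neighbour. For 3′UTR sites, 76.6% of TTP sites had a TTP-AA neighbour and 21.5% of TTP-AA sites a TTP neighbour, in lists of 6775 and 61183 sites. At 0 h the intronic shares were 35.8% and 36.6%, and at 4 h 46.2% and 28.8%.

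At 1 h TTP had an intronic site in 1299 genes against 1543 in TTP-AA. At least 5 intronic cDNAs were held by 376 and 510 genes. At 0 h the numbers of genes were 1079 and 956, and at 4 h 535 and 756. The 3 genes with most cDNAs held 13.7%, 32.5% and 37.4% of the intronic cDNAs for TTP over the times, and 17.5%, 18.0% and 29.3% for TTP-AA.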

How the data were processed

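iCLIP was measured in 15 samples of 6 groups. According to the study's methods, the authors demultiplexed the reads, collapsed PCR duplicates through random barcodes, aligned them to mm10 (Bowtie and GRCm38 in the submitters' processing notes) with Ensembl annotation, pooled each group's libraries and retained sites with a false-discovery rate under 0.05 in iCount (100 permutations, 15 nt). Headers of the 1 h lists carry a mark for treating regions as one that the others lack. Thresholds for sites may therefore differ between times, so counts and shares compared between 1 h and the other times may rest on different thresholds. The deposited value is a score: a signed whole number of unique cDNAs, the sign giving the strand, with no normalisation and no value per library. The cDNAs of a list numbered 19167 to 174397, so a count of 0, read as up to 3 counts, stands for 0.00172% to 0.0157% of a list. This reading does not cover cDNAs at sites that failed the false-discovery threshold, which the lists leave out.

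Sites were assigned to GENCODE M21, which is later than the authors' annotation, in the order 3′UTR, CDS, 5′UTR, non-coding exon, intron, intergenic. Where genes overlapped, protein-coding and then shorter genes took the site, which concerned 316 of 16399 positions. Shares have Wilson and differences Newcombe 95% intervals; gene ratios have exact conditional binomial ones. No test between conditions was possible, because replicates are pooled. Genes were named by rule: the 3 genes with most intronic cDNAs per list, the sites with most cDNAs, the 5 largest and smallest ratios at 1 h, the 3 leading genes of each gene list (which name only genes with a site), and 5 targets of the study. The members and lists were chosen with earlier results of these data known. Sequence was read from GENCODE transcripts and RefSeq promoter windows, since no genome was used here. Intervals and ratios were checked on simulated data. Python 3.11.15, numpy 2.4.6, pandas 2.3.3, scipy 1.17.1 and matplotlib 3.10.9 were used.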

Additional observations from a re-analysis of the deposited data

How the results depend on the processing

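No paired analysis was possible because each list sums the libraries of its group, which also leaves no replicate to omit. Of 46 alternative values over 11 results, 19 stayed within the interval or within 1.5 times of the main value, 25 moved and 2 turned in direction. The difference in intronic share (main −1.73, −8.14 and 4.08 points at 0 h, 1 h and 4 h) was −2.76, −12.4 and −0.90 with each site counted once, and −2.75, −13.5 and −1.62 without the chromosome 17 ribosomal RNA locus. It was −6.54 and 2.71 at 1 h and 4 h without the gene with most intronic cDNAs in each list. In alternatives chosen after seeing the data, it was −0.83 and −1.28 at 0 h and 1 h without 3′UTR cDNAs in the denominator, and −2.34 and 5.97 at 1 h and 4 h without clusters in all 6 lists. The cause was not tested. Of intronic sites at 1 h, 0% (TTP) and 2.60% (TTP-AA) held TATTTAT when sites in any exon were left out, and 11.1% (TTP-AA) when weighted by cDNAs. Overlap was 25.8% and 21.1% at the same nucleotide and 72.5% and 56.1% for sites with at least 2 cDNAs. Genes higher and lower in TTP-AA numbered 144 and 54 scaled to intronic cDNAs, 137 and 62 scaled to cDNAs outside 3′UTRs (chosen after seeing the data), and 28 and 70 with a minimum of 20 cDNAs, where fewer genes were tested. With at least 5 cDNAs, 376 (TTP) and 510 (TTP-AA) genes had an intronic site. Leaving out sites in sequence present more than once in the genome was not run, since no genome was used. How detection of weak sites depends on the size of a list was not tested.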

Other observations

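Macrophage and other marker genes gave few intronic cDNAs over the 6 lists, with 5 at Itgam, 2 at Csf1r and 2 at Cdh1. At 4 h a single Cdk8 cluster held 831 of 5712 intronic TTP cDNAs, and a single Pde1c cluster 871 of 4549 for TTP-AA.

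Among the single-list clusters, the largest outside the TTP-AA list at 1 h was a lone position in Asph with 17 cDNAs for TTP at 4 h, and a lone position in Prkcb held 12 for TTP at 1 h. Clusters of the TTP-AA list at 1 h alone lay in an exon of another transcript at 12.0% of their 3580 sites (11.0 to 13.1%), against 6.53% of 2788 for TTP at 1 h, 4.38% and 5.54% for TTP and TTP-AA at 0 h, and 5.06% and 4.12% at 4 h. No cause was tested for these values.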
